A study of Mus musculus with 2 samples.

Results

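Isolated narrow K3R3-only regions were places where the mutant histone variant H2A.Z K3R3 was called enriched and no wild-type H2A.Z region lay nearby. They were selected on called positions in the stricter K3R3 list (threshold 1e-12), by width and by distance to wild-type calls. A region had to be under 1000 bp wide, lie on one of the 17 autosomes other than 6 and 8, and have no region of either wild-type list (1e-09 or 1e-12) within 10 kb of its edges. The rule found 5322 regions among the 110435 of the stricter K3R3 list, or 4.82%. They covered 0.996 Mb in all.

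The histone variant H2A.Z takes the place of H2A in nucleosomes, mostly at promoters and enhancers, and it is deposited by dedicated remodelling complexes. In embryonic stem cells it marks both active and poised promoters, and part of it is mono-ubiquitylated on lysines of the C-terminal tail by Polycomb repressive complex 1. In K3R3 3 of these lysines are arginines, so the protein cannot be modified there.

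The libraries came from mouse embryonic stem cells with a C-terminal YFP fusion of H2A.Z, either wild type or K3R3, 1 library for each. Per the labels, the transgenes were introduced by lentivirus into the KH2 line, driven from a CMV promoter under rtTA control with 1 µg/ml doxycycline, and YFP-positive cells were sorted. Both lines also carried a knockdown of the untagged H2A.Z by hairpins directed at its 3′ UTR, and the strain is labelled V6.5 (129SvJaexC57BL/6). Whether a line was a single clone is not stated, and the tagged protein was precipitated with the antibody Abcam Ab290. The series is about mono-ubiquitylated H2A.Z in poised chromatin, and K3R3-only regions bear on whether the mutant is found where the wild type is not. With 1 library per group there is no replicate check, so every value below describes these 2 libraries and no p-value is given. Region lists do not give read depth, and the longer K3R3 list (110435 regions against 97146 in the stricter lists) cannot be told apart from an effect of depth or of the amount of tagged protein. Intervals are 95% intervals for counting error, with regions taken as independent. Counts of the isolated regions in 1 Mb windows varied more than independent counts would, with a variance 2.12 times the mean (1.44 times for the wild-type counterpart described below), so the intervals are too narrow and a lack of overlap between them is no test.

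The isolation step removed most K3R3-only regions. Of 88062 stricter K3R3 regions under 1000 bp on the 17 autosomes, 64096 (72.8%) overlapped a wild-type region, 18644 (21.2%) did not overlap one but had one within 10 kb, and 5322 (6.04%) were isolated. Isolated regions were thus 22.2% of the 23966 narrow regions without a wild-type partner. The same rule with the libraries exchanged found 1606 isolated narrow wild-type-only regions, 2.25% of 71454, so there were 3.31 isolated K3R3-only regions for each of these. The shares were fixed by the rule and are given as a description. The width limit cut few places, since only 27 isolated K3R3 regions were 1000 bp or wider (median 1150 bp, up to 6875 bp). Just inside the limit, 11 regions were 925 to 975 bp wide, and just outside it 12 were 1000 to 1075 bp wide. The distance limit cut through a dense part of the distribution. Gaps over 10000 and up to 11000 bp were found for 371 regions inside the limit, and gaps over 9000 and up to 10000 bp for 494 K3R3-only regions outside it, with a median width of 175 bp on either side.

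Every one of the 17 autosomes held such regions. Counts ran from 132 on chromosome 19 and 224 on chromosome 16 to 422 on chromosome 3 and 503 on chromosome 1, and followed chromosome length (Spearman rho 0.83 over 17 chromosomes, given without a test). Per Mb between the first and last region, the density ran from 1.96 on chromosome 12 to 3.34 on chromosome 13. A region can pass the rule only in sequence farther than 10 kb from all wild-type regions, called open sequence here. Open sequence made up 63.2% of the 17 autosomes (1350.5 of 2138 Mb), from 50.9% on chromosome 11 to 70.3% on chromosome 14. Open sequence held 3.94 regions per Mb overall (exact Poisson interval 3.84 to 4.05). Sequence in which no region could be called, such as assembly gaps, was not taken out of it, and its share is unknown.

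The rates per open Mb of some chromosomes had intervals that did not overlap. Chromosome 13 had the highest, 5.29 (4.78 to 5.84), followed by chromosomes 17 (4.92, 4.34 to 5.55), 11 (4.87, 4.33 to 5.45) and 9 (4.83, 4.33 to 5.38). The intervals of these 4 overlap, so their order is not resolved. Chromosome 12 had the lowest, 2.90 (2.54 to 3.30), and chromosome 4 the next, 3.26 (2.90 to 3.64), with overlapping intervals. The isolated share of narrow K3R3 regions ran from 3.92% (3.51 to 4.39) on chromosome 11 to 9.35% (8.53 to 10.2) on chromosome 3. It was lower on chromosomes rich in K3R3 regions (rho -0.83 with K3R3 regions per Mb over 17 chromosomes), where open sequence was also scarcer (rho -0.95). Narrow K3R3 regions are the denominator of this share and count among the K3R3 regions per Mb, so part of the fall is built in. Isolated regions per Mb of chromosome had a rho of -0.16 with K3R3 regions per Mb, and isolated regions per open Mb had 0.34. Widths hardly varied between chromosomes, with medians of 150 to 175 bp. K3R3-only regions outnumbered wild-type-only ones on each of the 17 chromosomes, from 2.49 times on chromosome 19 to 5.04 times on chromosome 18. On the chromosomes that the rule leaves out, the same criteria gave 70 K3R3-only and 474 wild-type-only regions on chromosome 6, 66 and 397 on chromosome 8, and 148 and 57 on X.

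**Figure D1:**
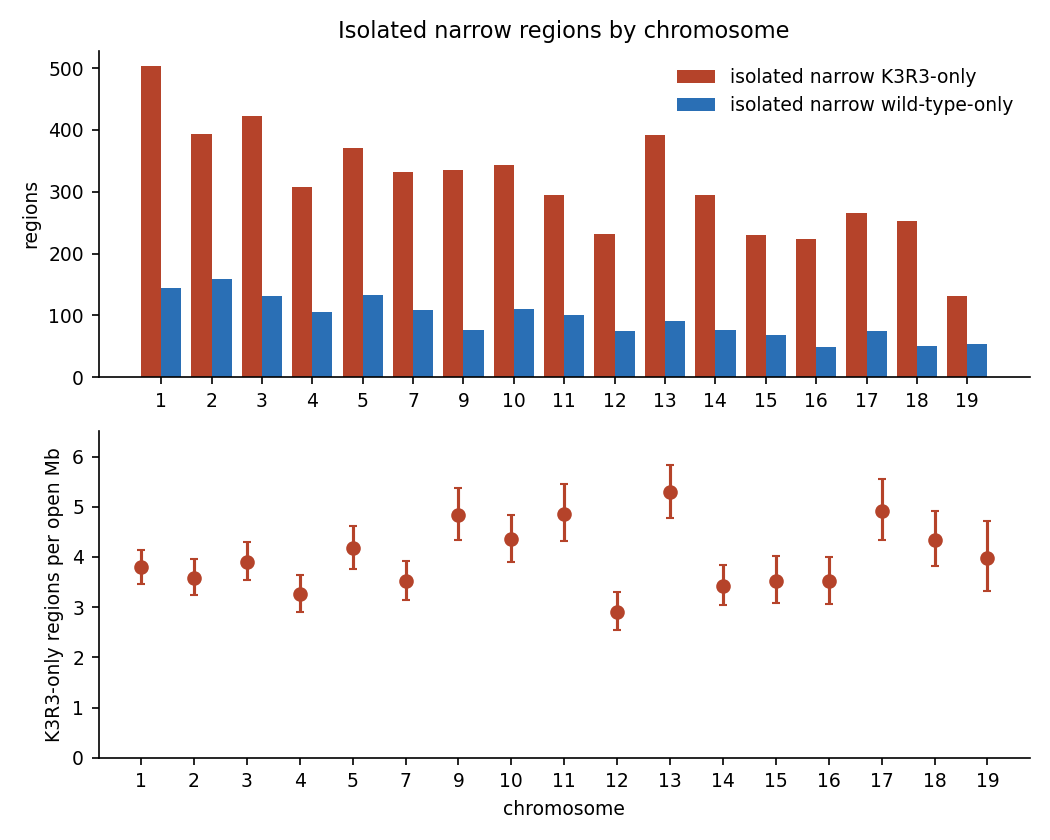
Isolated narrow regions on the 17 autosomes used. The upper panel gives the number of isolated K3R3-only (red) and wild-type-only (blue) regions by chromosome, and the lower panel gives K3R3-only regions per Mb of open sequence with exact 95% Poisson intervals as bars. Chromosome 1 has the most K3R3-only regions (503), while chromosome 13 has the highest rate (5.29) and chromosome 12 the lowest (2.90).

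Along the chromosomes the regions were spread widely, with a rate per open Mb that rose towards the high-coordinate end. Mouse autosomes carry the centromere at the low-coordinate end. With each chromosome cut into 10 equal bins from its first to its last region, bins 1 to 8 held 3.21 to 3.95 regions per open Mb. Bin 9 held 5.07 (4.67 to 5.50) and bin 10 held 6.05 (5.59 to 6.54). Bin 10 also held 16.4% of all narrow K3R3 regions but 11.8% of the isolated ones. As a share of narrow K3R3 regions the isolated ones therefore went the other way, from 10.4% (9.65 to 11.2) in bin 1 to 4.37% (4.05 to 4.72) in the last. Isolated wild-type-only regions were also most frequent in bin 10, with 12.4% of their set there and 8.90% in bin 1.

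**Figure D2:**
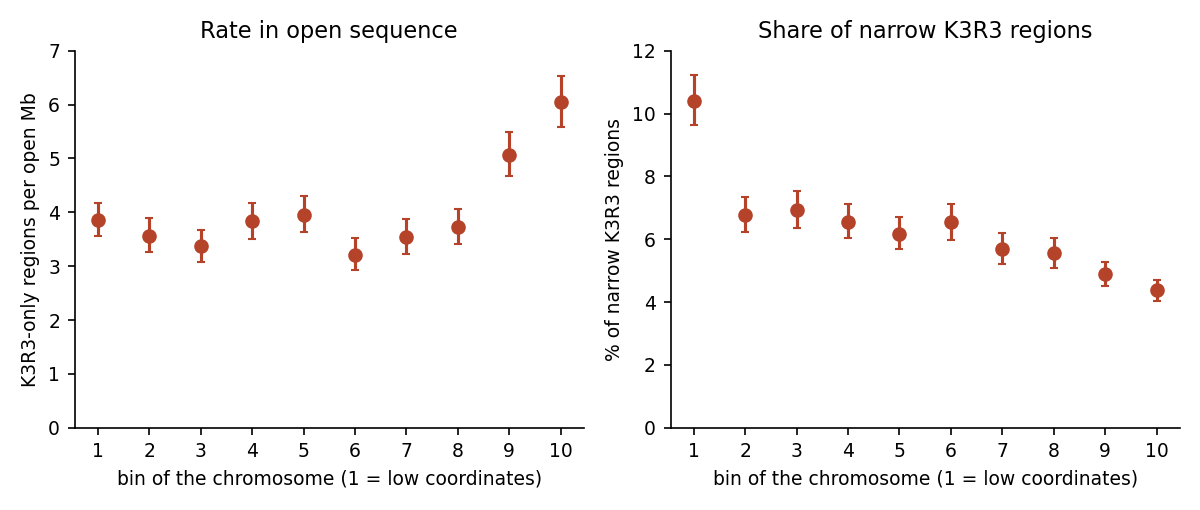
Isolated narrow K3R3-only regions in 10 equal bins along the chromosome, pooled over 17 autosomes. The left panel gives regions per Mb of open sequence with exact 95% Poisson intervals, and the right panel gives their share of all narrow K3R3 regions with 95% Wilson intervals. The rate is highest in bin 10 (6.05), where the share is lowest (4.37%).

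In 195 complete windows of 10 Mb the number of isolated regions had a median of 24 (quartiles 16.5 and 31), a minimum of 4 and a maximum of 56. The 5 windows with most regions were chromosome 14 between 60 and 70 Mb with 56, chromosome 3 between 30 and 40 Mb with 51, chromosome 13 between 40 and 50 Mb with 51, chromosome 9 between 110 and 120 Mb with 45, and chromosome 1 between 30 and 40 Mb with 44. A tie at 44 was found on chromosome 13 between 50 and 60 Mb, which had only 3.07 Mb of open sequence and the highest rate of all complete windows, 14.3 per open Mb. The 5 windows held 4 to 8 isolated wild-type-only regions each, against a median of 8 over all complete windows. In the order named, isolated regions were 9.77%, 13.1%, 8.57%, 6.56% and 10.3% of the narrow K3R3 regions in these 5 windows. On the 17 autosomes together this share was 6.04%. The fewest regions, 4, lay on chromosome 7 between 40 and 50 Mb, where the whole stricter K3R3 list had 43. K3R3-only regions were the more numerous isolated kind in 192 of the 195 windows. The 20 windows with most regions held 16.2% of the set, so no small part of the genome held most of it.

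Open sequence consisted of 20097 stretches, and most of them were empty. A single isolated K3R3-only region lay in 2955 stretches, a pair in 683 and 3 or more in 291, with at most 6 in one stretch, so 19.6% of stretches held any. Short stretches had the higher rate. Those of up to 5 kb held 17.3 regions per Mb (14.4 to 20.6), those of 20 to 50 kb held 8.48 (8.04 to 8.94), and those over 100 kb held 2.00 (1.91 to 2.10). Distances to the nearest wild-type region showed the same concentration near the limit. Their median was 21.2 kb (20.6 to 21.8) with quartiles of 14.2 and 39.7 kb, and 47.1% were at most 20 kb. Only 410 regions (7.70%, 7.02 to 8.45) lay more than 100 kb from any wild-type region. For isolated wild-type-only regions the median distance to K3R3 was 19.9 kb (19.2 to 20.7).

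The isolated regions were narrow even among narrow regions. Their median width was 150 bp, with quartiles of 100 and 225 bp and a 90th percentile of 350 bp. Coordinates in the lists move in steps of 25 bp, and 473 regions (8.89%) were a single step wide. Regions under 100 bp made up 22.7% (21.6 to 23.8), and regions of 500 bp or more 4.49% (3.97 to 5.08). K3R3-only regions with a wild-type region within 10 kb had a median of 200 bp, and 18.5% (17.9 to 19.0) of them were under 100 bp. Isolated wild-type-only regions also had a median of 150 bp, but their widths were more dispersed, with 30.0% (27.8 to 32.3) under 100 bp and 11.1% (9.64 to 12.7) of 500 bp or more.

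A closer comparison is with 12841 narrow K3R3 regions that did overlap a wild-type region but had no other wild-type region within 10 kb. Their nearest further wild-type region was a median of 22.0 kb away (21.7 to 22.4; quartiles 14.2 and 42.1 kb), and for 7.80% (7.34 to 8.27) it lay beyond 100 kb. Their median width was 275 bp, 4.80% (4.45 to 5.19) were under 100 bp and 23.0% (22.3 to 23.7) were 500 bp or more. Put together, there were 18163 isolated narrow K3R3 sites, of which 29.3% (28.6 to 30.0) lacked a wild-type region. That share fell in each step of width, from 66.2% (64.0 to 68.3) below 100 bp through 46.1% (44.6 to 47.6) at 100 to 175 bp and 26.3% (25.1 to 27.6) at 200 to 275 bp to 5.91% (5.00 to 6.97) at 600 to 975 bp. A wide region has more room to overlap another by geometry alone, and the part of this in the trend was not tested.

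**Figure D3:**
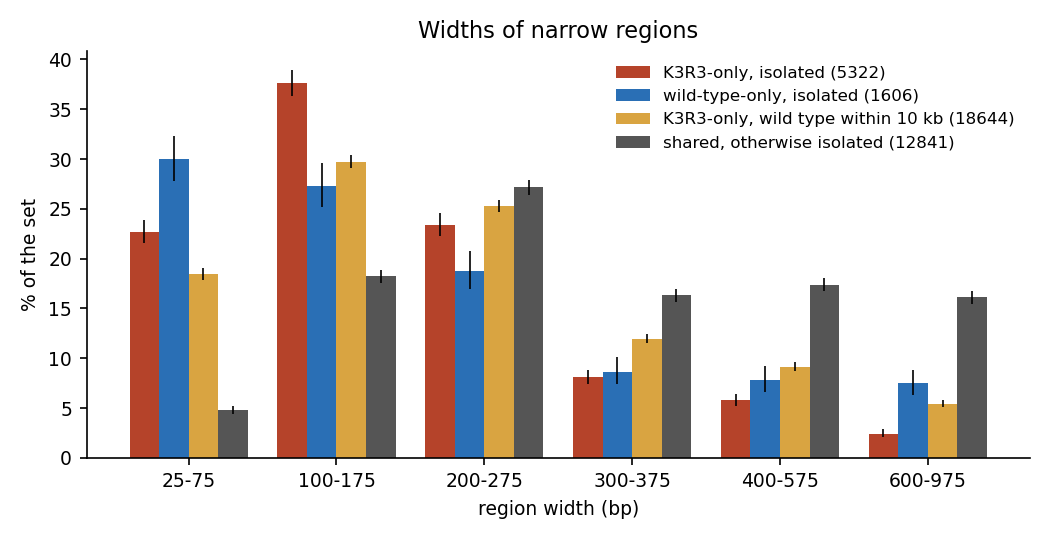
Widths of narrow regions on the 17 autosomes. Bars give the percentage of each set in 6 width classes in bp, with 95% Wilson intervals, for isolated K3R3-only regions (red), isolated wild-type-only regions (blue), K3R3-only regions near a wild-type region (yellow) and shared but otherwise isolated K3R3 regions (grey). The isolated K3R3-only set peaks at 100 to 175 bp (37.6%), and the shared set at 200 to 275 bp (27.2%).

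The looser K3R3 list (1e-09) was not used by the rule and gives a second call on the same library. It comes from the same library, so presence in it is no independent check. A looser threshold should keep every stricter region, yet the lists were not nested. The reason was not tested, so what absence from the looser list means is unclear. A looser region overlapped 4601 of the 5322 regions, or 86.5% (85.5 to 87.3), against 92.6% of all narrow stricter K3R3 regions on these chromosomes. Shared but otherwise isolated sites were found in the looser list in 97.0% (96.7 to 97.3) of cases, and K3R3-only regions near a wild-type region in 83.7% (83.1 to 84.2). In these lists the isolated regions were thus present less often than isolated shared sites and more often than other K3R3-only regions. These differences were not tested. Of isolated wild-type-only regions, 80.8% (78.8 to 82.6) returned in their own looser list. The gap to shared sites was present in each of 6 width classes. Below 100 bp 80.1% (77.8 to 82.3) of the isolated K3R3-only and 91.7% (89.3 to 93.7) of the shared sites returned, and at 600 to 975 bp 92.3% (86.4 to 95.8) and 98.7% (98.1 to 99.1).

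Where a looser region was present it covered the stricter one completely in all 4601 cases. It was wider in 3928 (85.4%) and of equal width in 673, with medians of 200 bp looser and 175 bp stricter. Only 8 looser counterparts reached 1000 bp. The 721 regions absent from the looser list had a median of 150 bp and leaned to the narrowest class, with 33.3% (29.9 to 36.8) of them under 100 bp against 21.0% (19.9 to 22.2) of those present. Presence in the looser list was 86.1% (84.3 to 87.7) at 10 to 15 kb from wild type, 85.5% (83.8 to 87.0) at 20 to 50 kb and 91.7% (88.6 to 94.0) beyond 100 kb, so the most remote regions returned more often than the nearest. By chromosome it ran from 82.6% (75.2 to 88.1) on chromosome 19 to 92.2% (88.0 to 95.0) on chromosome 15. When the rule was applied to the looser K3R3 list it found 6977 regions, of which 65.5% overlapped one of the stricter set, and 86.1% of the stricter set overlapped one of these.

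Most isolated regions stood alone, but a minority lay in short runs. The nearest other isolated region was a median of 78.7 kb away (74.6 to 83.3), with quartiles of 13.6 and 203 kb. Another lay within 10 kb of 1176 regions (22.1%, 21.0 to 23.2) and within 1 kb of 320 (6.01%, 5.41 to 6.68). Joined at gaps of up to 10 kb, they formed 434 pairs, 65 runs of 3, 14 of 4, 9 of 5 and 2 of 6, and 4146 remained single. Isolated wild-type-only regions, which were fewer, were near another of their kind less often, with 12.5% (11.0 to 14.2) within 10 kb and 5.67% (4.64 to 6.91) within 1 kb. The intervals at 1 kb overlap although the sets differ 3.31-fold in size.

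Of the 652 neighbouring pairs at most 10 kb apart, 81 (12.4%) were separated by up to 500 bp and 201 (30.8%) by 5 to 10 kb. Counting every stricter K3R3 region, not only isolated ones, 28.1% (26.9 to 29.3) had a K3R3 neighbour within 10 kb, against 26.2% (25.4 to 26.9) of shared but otherwise isolated sites. Within 1 kb the order turned, with 6.29% (5.67 to 6.98) against 9.14% (8.66 to 9.65). For 3828 regions (71.9%) there was no other stricter K3R3 region within 10 kb, and for 341 (6.41%) none within 100 kb. Only 18 lay within 10 kb of an isolated K3R3 region of 1000 bp or more. Regions in runs of 3 or more had a median width of 200 bp (175 to 200), against 150 bp for single ones. They were found in the looser list about as often, 86.4% (82.1 to 89.8) and 86.7% (85.7 to 87.7).

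**Figure D4:**
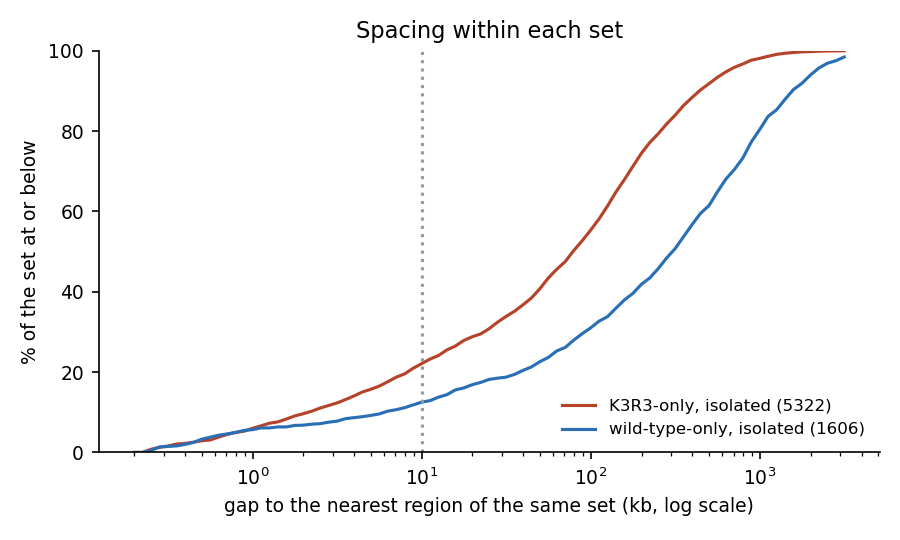
Spacing within the isolated sets. Curves give the percentage of isolated K3R3-only (red) and wild-type-only (blue) regions whose nearest region of the same set lies at or below the gap on the x axis (kb, log scale), and the dotted line marks 10 kb. At 10 kb the curves stand at 22.1% and 12.5%, and the median gaps are 78.7 and 305 kb.

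The 5 longest runs show what such groups look like (coordinates 1-based in mm9). On chromosome 1, 6 regions of 175 to 450 bp lay between 39062551 and 39070800, in 8.25 kb, and each was also in the looser list. They were 11.3 to 17.8 kb from the nearest wild-type region. On chromosome 18, 6 regions of 25 to 675 bp lay between 66559251 and 66574950, with 32.6 kb or more to wild type, but only 3 of them were in the looser list. Another run on chromosome 1, of 5 regions from 92143076 to 92154900, had 2 members that fell within a single looser region of 675 bp. On chromosome 2 there were runs of 5 from 6099401 to 6111500 and from 168158626 to 168167025, and every member of these was in the looser list. The last of these included the widest piece, 850 bp (168158626 to 168159475), and sat in a megabase with 237 K3R3 and 225 wild-type regions, whereas the run on chromosome 18 had 54 and 34 around it. None of the 5 runs had an isolated K3R3 region of 1000 bp or more within 10 kb.

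The megabase around an isolated region held fewer regions than that around other K3R3-only regions. Within 500 kb on either side of the midpoint there was a median of 41 other stricter K3R3 regions (40 to 42; quartiles 21 and 70, range 0 to 238) and 31 stricter wild-type regions (31 to 32; quartiles 16 and 54, range 0 to 227). A sparse megabase with fewer than 10 other K3R3 regions surrounded 551 (10.4%, 9.56 to 11.2), and a dense one with 100 or more surrounded 616 (11.6%, 10.7 to 12.5). Wild-type regions were absent from the whole megabase in 24 cases. K3R3-only regions near a wild-type region lay in a denser setting, with a median of 96 K3R3 regions (95 to 98), but distance to wild type was used by the rule and favours sparse sequence.

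The surroundings of shared but otherwise isolated sites differed from these by 1 region at the median. Wild-type counts of shared sites include the region they overlap, where it is in the stricter list. Shared sites had a median of 40 other K3R3 regions (39 to 41; quartiles 20 and 71) and 32 wild-type regions (32 to 33), and 11.2% (10.6 to 11.7) and 11.9% (11.3 to 12.5) of them lay in the sparse and dense classes. In fixed windows of 1 Mb there were 0.442 K3R3-only sites for each shared isolated site where the window held fewer than 10 wild-type regions, 0.405 to 0.420 in the 3 middle classes and 0.363 where it held 100 or more. The wild-type partner of a shared site adds to the count that classes its window, and a K3R3-only site has none. Part of this fall is therefore built in. Summed over the megabases, which overlap, K3R3 regions stood to wild-type regions as 1.28 around isolated K3R3-only regions, 1.20 around shared isolated sites and 1.20 on the 17 autosomes as a whole. The rule keeps wild-type regions out of the nearest 10 kb on either side, which raises the first ratio by construction. Shared isolated sites likewise had no further wild-type region in that distance. Their overlapping wild-type region was counted, however, while the site itself was left out of the K3R3 count. That lowers the second ratio by construction, and the part of this in the difference was not tested. K3R3-only regions made up 28.3% of the other K3R3 regions around the set and 26.3% around shared isolated sites, where the 17 autosomes as a whole had 24286 of 97115. Any other K3R3 region wholly within 10 kb of an isolated region is K3R3-only by the rule, which raises the first share by construction. Around shared isolated sites the same holds unless the neighbour overlaps the wild-type region of the site. The part of this in the difference was not tested.

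Per open Mb, however, isolated K3R3-only regions were more frequent where wild-type regions were dense. Windows of 1 Mb with fewer than 10 wild-type regions had 1.40 per open Mb (1.31 to 1.50), and the rate rose through 3.73 (3.53 to 3.93) at 10 to 24, 6.86 (6.53 to 7.20) at 25 to 49 and 8.66 (8.17 to 9.17) at 50 to 99 to 9.33 (8.42 to 10.3) at 100 or more. The open share of a window shrank over the same classes from 89.7% to 19.2%. The count per window was therefore highest in the middle, with 3.75 regions at 25 to 49 wild-type regions, 1.26 in the sparsest class and 1.79 in the densest. Isolated wild-type-only regions rose in the same order, from 0.337 (0.291 to 0.389) to 6.21 (5.45 to 7.04) per Mb of sequence farther than 10 kb from K3R3. They count among the wild-type regions that class the windows, so part of their rise is built in. In all, 1723 of 2149 windows (80.2%) held at least 1 isolated K3R3-only region, and the fullest held 17.

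**Figure D5:**
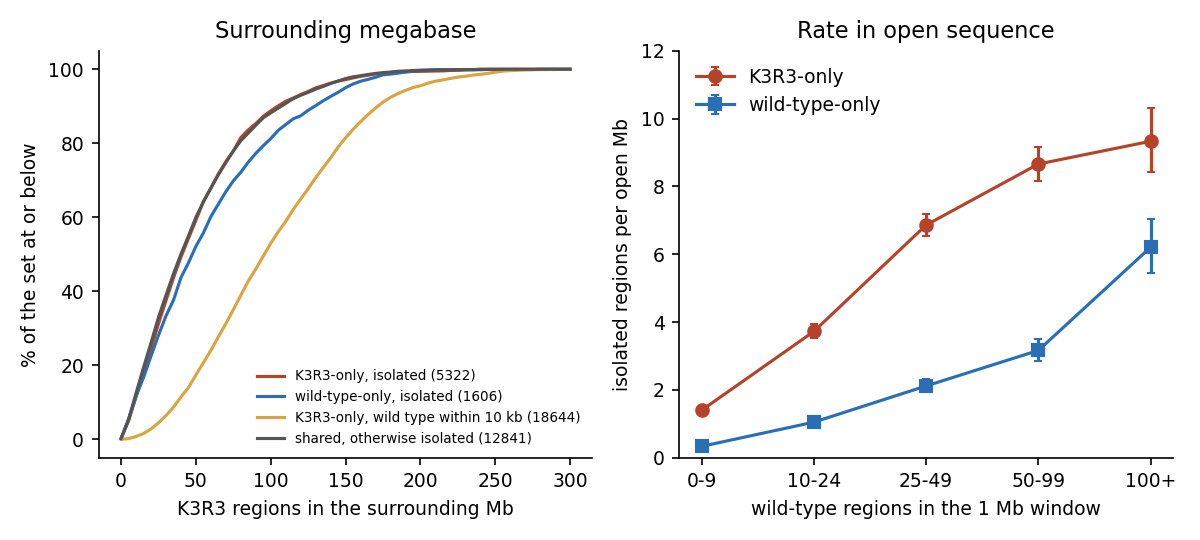
Density around isolated regions. The left panel gives, for 4 sets, the percentage whose surrounding megabase holds at most the number of stricter K3R3 regions on the x axis. The right panel gives rates in 5 classes of 1 Mb windows by wild-type regions, with exact 95% Poisson intervals. Isolated K3R3-only regions (red) are given per open Mb. Isolated wild-type-only regions (blue) are given per Mb of sequence farther than 10 kb from K3R3 regions, although the axis label names open Mb for both. The curves of isolated K3R3-only and shared isolated sites lie on each other (medians 41 and 40), and both rates on the right rise with density. The wild-type-only rise is partly built in, since these regions count towards the classes.

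Traits within the set shifted with the surroundings. Where the megabase held fewer than 10 other K3R3 regions, the median width was 125 bp (125 to 150), 28.3% (24.7 to 32.2) were under 100 bp, and 5.08% (3.54 to 7.25) had another isolated region within 10 kb. Where it held 100 or more, the median was 175 bp (175 to 200), 18.3% (15.5 to 21.6) were under 100 bp, and 38.0% (34.2 to 41.9) had such a neighbour. Neighbours count among the K3R3 regions of the megabase, so the last trend is partly built in. Presence in the looser list went the other way, from 90.7% (88.0 to 92.9) in the sparsest surroundings to 83.3% (80.1 to 86.0) in the densest. Shared isolated sites changed in the same directions, with median widths of 225 and 350 bp and 99.0% and 94.8% present in the looser list.

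At the extremes, the most remote and the widest regions were of different kinds. The most remote was a region of 150 bp on chromosome 5 (11137976 to 11138125), 927 kb from any wild-type region and the only stricter region of either library in its megabase. Another of 150 bp on chromosome 3 (47236576 to 47236725) was 888 kb away and likewise alone. The next were 125 bp on chromosome 12 (7094176 to 7094300), 75 bp on chromosome 3 (72217951 to 72218025) and 75 bp on chromosome 12 (116244926 to 116245000), at 650, 634 and 627.5 kb. All 5 were present in the looser list, with widths of 125 to 200 bp.

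The widest, at 975 bp each, lay on chromosome 9 from 122108376 to 122109350, on chromosome 11 from 68625051 to 68626025 and on chromosome 12 from 84429476 to 84430450, followed by a pair of 950 bp on chromosome 3 (34768676 to 34769625 and 63076051 to 63077000). They were 12.4 to 39.9 kb from wild-type regions. Their megabases differed, with 131 other K3R3 regions around the one on chromosome 11 and 14 around the second on chromosome 3. All 5 were also in the looser list, at 950 to 1050 bp.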

How the data were processed

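ChIP-seq regions came from 2 libraries, wild-type and K3R3 H2A.Z-YFP. The authors deposited 2 lists per library, named by the thresholds 1e-09 and 1e-12 per the file headers, giving the coordinates of each region without a score. Bowtie 0.12.3, bedtools and build mm9 are named per the submitters' processing notes. The sources used here do not state the region caller or its control. Chromatin was sonicated for 30 cycles, fragments of 200 to 400 bp were selected, and 19 PCR cycles were run, per the labels' protocols. Read depth is unknown, so no precision that needs it is given.

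Gaps were measured edge to edge, and a gap of up to 10 kb counted as near. Overlap meant at least 1 shared bp. Medians carry intervals from exact binomial ranks, shares Wilson intervals and rates exact Poisson intervals (95%). Named regions were the 5 widest, the 5 most remote, the 5 longest runs and the 5 fullest 10 Mb windows, ties by chromosome and start. Members, comparison sets and lists were chosen with earlier results of these data known. The analysis ran in Python 3.11.15 (numpy 2.4.6, scipy 1.17.1, pandas 2.3.3, matplotlib 3.10.9). Gaps were checked with bedtools 2.31.1 (0 of 110434 differed), and the selection was tested on simulated data. A genome sequence and annotation of mm9 were not used here, so regions carry no gene annotation and no sequence is shown.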

Additional observations from a re-analysis of the deposited data

How the results depend on the processing

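No paired analysis was possible because there was 1 library per group. K3R3-only regions outnumbered wild-type-only ones in each alternative run for both, by 2.98 to 3.56 times. None of these runs took in chromosomes 6 and 8, where wild-type-only regions were the more numerous. Counts of the set ran from 2816 to 8865. The median width stayed at 150 or 175 bp. Requiring presence in the own looser list was added after seeing the data. The causes of the shifts below were not tested, except that a shorter isolation distance admits more regions by construction. Isolation by 5 kb gave 8865 K3R3-only and 2877 wild-type-only regions, 26.8% had another within 10 kb, the megabase median was 55 and the rate 5.54 per Mb of sequence farther than the distance used from wild type, which changes with that distance and with the wild-type lists used. With 20 kb the values were 2816, 795, 15.8%, 28 and 2.68. Under 500 bp, 20.6% were near another and the rate was 3.76. Against only the stricter list of the other library, 87.7% were in the looser K3R3 list, 25.9% were near another, the median was 43 and the rate 4.99. From the looser K3R3 list, 24.1% and 5.17. With presence in both K3R3 lists, 19.5% and 3.41. Taking near as 5 or 50 kb gave 15.7% and 40.7%. A window of 250 kb on either side gave 38 per Mb. Distances to transcription start sites were not run. Without read depth, how many of the narrowest regions a deeper wild-type library would hold cannot be told.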
